A study of Homo sapiens with 3 samples.

Results

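The bile acid and drug transporters of the hepatocyte were examined as a set of 10 genes, chosen by name among 55827 gene names matched across the tables. The members were ABCB1, ABCB4, ABCB11, ABCC1, ABCC2, ABCC3, ABCG2, SLC10A1, SLCO1B1 and SLCO1B3. Hepatocytes take bile acids and drugs from the blood through carriers of the SLC families in the basolateral membrane. They export them through ATP-driven pumps of the ABC family, into bile across the canalicular membrane or back to the blood across the basolateral one. Several of these pumps are known for moving anticancer drugs out of tumour cells, and many of the carriers are known to be low in hepatocellular carcinoma.

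The cells were PLC, a human liver cancer line, infected with hairpin viruses and collected 48 hours later, and each of the 3 groups is a single library. In shDIS3L2 the hairpins targeted DIS3L2, a nuclease for RNAs with uridine tails. In shHNRNPU they targeted HNRNPU, the gene of the nuclear RNA-binding protein SAF-A, and control received a hairpin without a target. Every group was thus infected, and the sources used here do not state how many hairpins stood behind each knockdown. Levels are FPKM, mapped fragments scaled to transcript length and library depth, followed in parentheses by the lower and upper bound deposited with each value. The bounds cover the estimate within 1 library, and without replicates no difference here has a p-value or a check against variation between cultures.

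As a check of the labels, DIS3L2 stood at 3.23 FPKM in shDIS3L2 and 11.2 FPKM in shHNRNPU, against 7.61 FPKM in control. HNRNPU stood at 232 FPKM in shDIS3L2 and 33.5 FPKM in shHNRNPU, against 178 FPKM in control. Depth, worked out from single-exon genes, had a median of 18.4 M fragments in shDIS3L2, 20.05 M in shHNRNPU and 22.98 M in control. Of the defining hepatocyte markers, 8 of 8 reached a mean of at least 1 FPKM over the 3 libraries. ALB was below 1 FPKM in shDIS3L2, at 0.856 FPKM (0 to 2.38), and stood at 5.21 FPKM in shHNRNPU and 11.8 FPKM in control. Of the fibroblast and endothelial markers, 0 of 7 and 0 of 3 reached that mean, and KDR, CD3E and HBB were listed at 0 in every library.

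Only a few of these transporters were found above low levels. In each library 4 members, ABCC1, ABCC2, ABCC3 and ABCG2, stood at 1 FPKM or more, and all 4 are export pumps. The remaining 6 lay below 1 FPKM, among them every uptake carrier and ABCB11, the bile salt export pump itself. The tables hold the 10 genes in 9 loci, because SLCO1B1 and SLCO1B3 were merged.

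Among the uptake carriers, SLC10A1, the sodium-dependent carrier of conjugated bile acids (chromosome 14, 70242134 to 70264006, hg19), was listed at 0 in every library. SLCO1B1 and SLCO1B3, neighbouring genes for carriers of organic anions such as bilirubin and statins, shared 1 assembled locus of 5 names on chromosome 12 (20963636 to 21392180 in shDIS3L2 and control). That locus stood at 0.177 FPKM (0 to 0.834) in shDIS3L2 and 0.122 FPKM (0 to 0.671) in shHNRNPU, against 0.0399 FPKM (0 to 0.510) in control. All 3 intervals reached 0 and overlapped, so no difference was detectable at this depth, and the value cannot be assigned to either gene. The coding transcripts of this pair, from the GENCODE release 29 reference, were identical at 86.7% of 2184 aligned bases.

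The likeness of the pair extended to the regions around their starts. The RefSeq windows of 300 bases around both starts (GRCh38.p14) matched at 82.8% of 261 aligned bases.

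Of the 5 canalicular pumps, 3 were at or near 0. ABCB11, which exports bile salts (chromosome 2, 169779448 to 169887832), and ABCB4, which moves phosphatidylcholine into bile (chromosome 7, 87031013 to 87109751), were listed at 0 in every library. For ABCB11 in shDIS3L2, and for ABCB4 in both knockdowns, the entry carried the identifier of an assembled locus and was still listed at 0. An exact 0 can be a failed estimate in these tables: 88 genes in shDIS3L2, 93 in shHNRNPU and 61 in control were listed at 0 while the other libraries stood at 5 FPKM or more.

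ABCB1, the P-glycoprotein of multidrug resistance, lies beside ABCB4 on chromosome 7 (87133175 to 87342611). It stood at 0.0340 FPKM (0 to 0.540) in shDIS3L2 and was listed at 0 in shHNRNPU, against 0.145 FPKM (0 to 0.583) in control. The intervals of shDIS3L2 and control overlapped. Principal transcripts of the pair shared 119 words of 50 bases, 2.52% of those in ABCB1, and were identical at 76.9% of 3951 aligned bases. Whether reads were split between them was not tested.

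ABCG2, the breast cancer resistance protein, pumps drugs and urate across the canalicular membrane. It stood at 17.4 FPKM (15.9 to 18.9) in shDIS3L2 and 6.22 FPKM (5.21 to 7.23) in shHNRNPU, against 6.89 FPKM (5.93 to 7.84) in control. The shDIS3L2 library was high and stood apart from the others, whose intervals overlapped. ABCC2, which exports glucuronides such as conjugated bilirubin, stood at 16.1 FPKM (15.1 to 17.1) in shDIS3L2 and 7.74 FPKM (7.02 to 8.47) in shHNRNPU, against 12.4 FPKM (11.5 to 13.3) in control. No pair of these intervals overlapped. The locus of ABCG2 was on chromosome 4 (89011416 to 89152474 in shDIS3L2 and control), and that of ABCC2 on chromosome 10 (101542489 to 101611949 in shHNRNPU and control, ending at 101613497 in shDIS3L2).

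The starts of ABCG2 and ABCC2 are shown because these canalicular pumps were expressed. ABCC1 and ABCC3, also expressed, had no window in the RefSeq set used, so their starts could not be examined. RefSeq gives 5 windows for ABCG2, and the one nearest to a principal coding transcript had a GC content of 70.0%, against 45.0% for ABCC2. The other ABCG2 windows had 72.3%, 72.0%, 48.3% and 40.3%, so the contrast depended on the window. The search covered the TATA word TATAAA, the CCAAT word, the GC box GGGCGG, the AP-1 word TGANTCA, the antioxidant response word TGACNNNGC and the inverted repeat of the farnesoid X receptor, on both strands. Capitals mark these words in the bases shown. The ABCG2 window nearest to the transcript held the GC box on each strand and the ABCC2 window held TATAAA. These words were found in 45% and 11.5% of all 35116 windows. The inverted repeat of the farnesoid X receptor was found in 0 of them, so its lack here says nothing about ABCG2 or ABCC2. The ABCG2 window with 48.3% GC held the antioxidant response word, found in 13.3% of all windows. The 250 bases before the start read 5′ to 3′ as follows, for ABCG2 at chr4:88158910-88159159 on the minus strand and for ABCC2 at chr10:99782390-99782639 on the plus strand (RefSeq, GRCh38.p14).
ABCG2: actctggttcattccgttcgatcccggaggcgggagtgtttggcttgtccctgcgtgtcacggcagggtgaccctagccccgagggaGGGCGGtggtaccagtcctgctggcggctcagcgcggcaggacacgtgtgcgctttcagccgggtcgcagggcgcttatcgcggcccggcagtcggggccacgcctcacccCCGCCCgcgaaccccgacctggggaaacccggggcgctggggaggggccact
ABCC2: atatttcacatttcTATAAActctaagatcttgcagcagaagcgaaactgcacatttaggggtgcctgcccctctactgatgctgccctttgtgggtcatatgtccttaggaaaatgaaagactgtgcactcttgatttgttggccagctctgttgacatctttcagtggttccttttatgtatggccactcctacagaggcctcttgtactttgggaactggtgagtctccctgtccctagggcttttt
The gene-level values do not tell which of the ABCG2 starts was used.

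The basolateral export pumps ABCC1 and ABCC3 return conjugates and drugs to the blood. ABCC1, on chromosome 16 (16043434 to 16236931 in shHNRNPU and control), stood at 21.4 FPKM (20.2 to 22.6) in shDIS3L2 and 12.1 FPKM (11.3 to 12.9) in shHNRNPU, against 9.44 FPKM (8.74 to 10.1) in control. Here too no pair of intervals overlapped, and control was the lowest library. ABCC3, known to be induced in cholestasis, is on chromosome 17 (48712138 to 48769806 in control). It stood at 1.22 FPKM (0 to 2.45) in shDIS3L2 and 1.61 FPKM (0.326 to 2.89) in shHNRNPU, against 2.70 FPKM (1.43 to 3.97) in control. All 3 intervals overlapped. They reached 100.4%, 79.8% and 47.1% of the value to the upper side, where genes with a mean of 1 to 5 FPKM had medians of 33.4%, 30.1% and 30.1%, so ABCC3 was measured less precisely than most genes at its level.

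**Figure D1:**
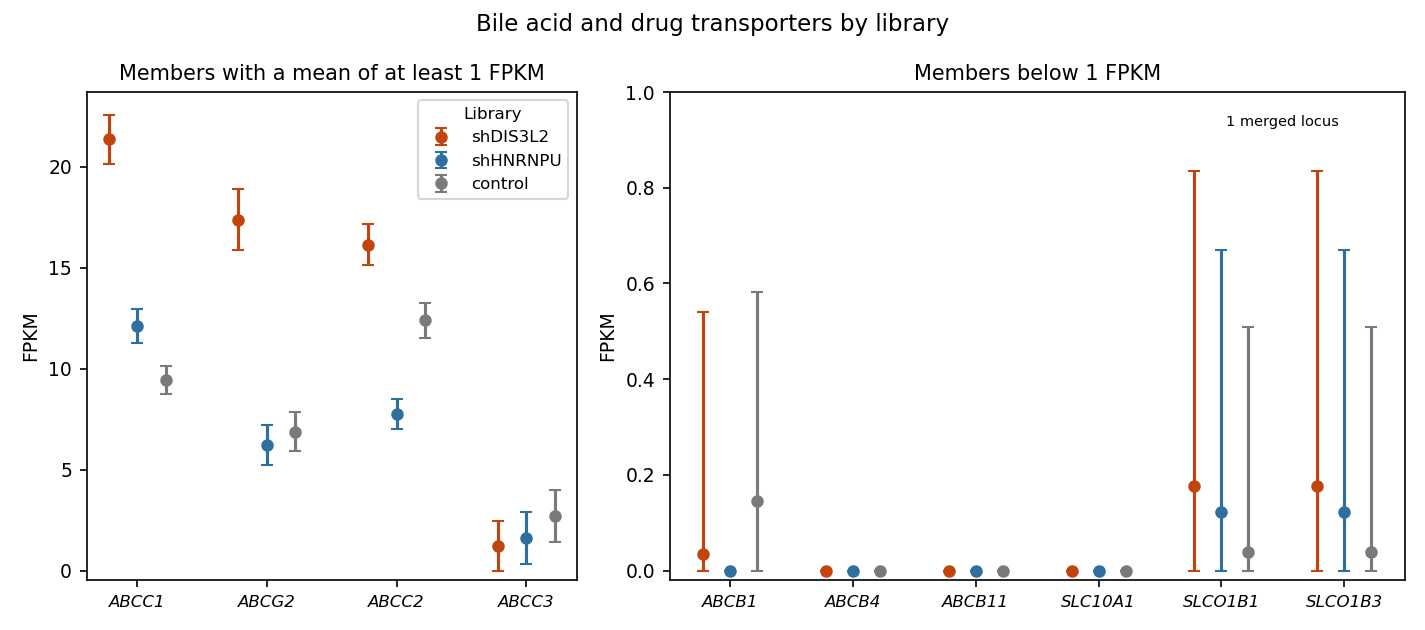
FPKM of each member (points) with the deposited interval (bars) in the shDIS3L2, shHNRNPU and control libraries, 1 library per group, with members at a mean of at least 1 FPKM on the left and the others on the right. ABCC1, ABCG2 and ABCC2 were highest in shDIS3L2, and the 6 members on the right lay below 1 FPKM in every library.

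The order of the expressed pumps differed between libraries. In shDIS3L2, ABCC1 came first, above ABCG2 and ABCC2, whose intervals overlapped. In shHNRNPU, ABCC1 again came first, and ABCC2 and ABCG2 overlapped below it. In control, ABCC2 stood above ABCC1 and ABCC1 above ABCG2, with no overlap between neighbours. ABCC1 was thus at 1.32 times the level of ABCC2 in shDIS3L2 (1.18 to 1.49 from the bounds) and 1.56 times in shHNRNPU (1.33 to 1.84), against 0.762 times in control (0.659 to 0.881). A ratio within a library does not depend on how that library was scaled. ABCC3 came last of the 4 in every library. Summed over the 9 loci, the transporters stood at 56.3 FPKM in shDIS3L2 and 27.8 FPKM in shHNRNPU, against 31.6 FPKM in control. The canalicular pumps made up 59.6% of that sum in shDIS3L2 and 50.2% in shHNRNPU, against 61.4% in control.

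The first comparison asks how these transcripts differ when the nuclease is reduced, with shDIS3L2 set against control. ABCG2 and ABCC1 were higher, at 2.52 times (2.03 to 3.18 from the bounds) and 2.26 times (1.99 to 2.58) the control FPKM. The size rule asks for a log2 ratio of FPKM plus 1 of 1 or more for a call of higher (-1 or less for lower), with intervals that do not overlap. By this rule 2 of the 4 members with a mean of at least 1 FPKM were higher and 0 lower, against 8.95% of 11787 genes called higher and 7.58% lower, 16.5% in all. The log2 ratios of FPKM plus 1 were 1.22 for ABCG2 and 1.10 for ABCC1, while ABCC2 at 0.35 and ABCC3 at -0.73 passed neither way. The interval of ABCC2 still lay above that of control, and 3 of the 4 had intervals above control, against 32.7% of all genes above and 25.3% below. The median log2 ratio of the 4 was 0.73, and that of all tested genes was 0.09. ABCC1 lay close to the threshold and came to 0.9985 after median-of-ratios rescaling. With a pseudocount of 5 ABCG2 came to 0.91 and ABCC1 to 0.87, so neither was called.

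Knockdown of HNRNPU was compared with the same control, so the control values enter both comparisons. None of the 4 members was called (0 of 4), against 8.32% of all genes called higher and 7.46% lower, 15.8% in all. ABCC2 was at 0.625 times the control FPKM (0.529 to 0.736), a log2 ratio of -0.61, and ABCC1 at 1.28 times (1.11 to 1.48), a log2 ratio of 0.33. The intervals of both stood apart from control, as did those of 34.9% of genes on the higher side and 23.4% on the lower. ABCG2 had a log2 ratio of -0.13 (range -0.51 to 0.25 from the bounds) and ABCC3 one of -0.50 (-1.91 to 0.68). The median of the 4 was -0.32, and that of all tested genes 0.12.

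Set directly against shDIS3L2, the shHNRNPU library had lower values for 3 of the 4 members, with intervals apart, against 28.4% of all genes, while 31.8% stood apart on the higher side. ABCG2 was called lower at 0.358 times the shDIS3L2 FPKM (0.276 to 0.455), a log2 ratio of -1.35, where 10.5% of genes were called lower and 10.2% higher, 20.7% in all. ABCC2 had a log2 ratio of -0.97 and ABCC1 one of -0.77, both short of the rule. ABCC2 passed it after either rescaling and with a pseudocount of 0.1, and with a pseudocount of 5 no member passed. ABCC3 had a log2 ratio of 0.23 with overlapping intervals.

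**Figure D2:**
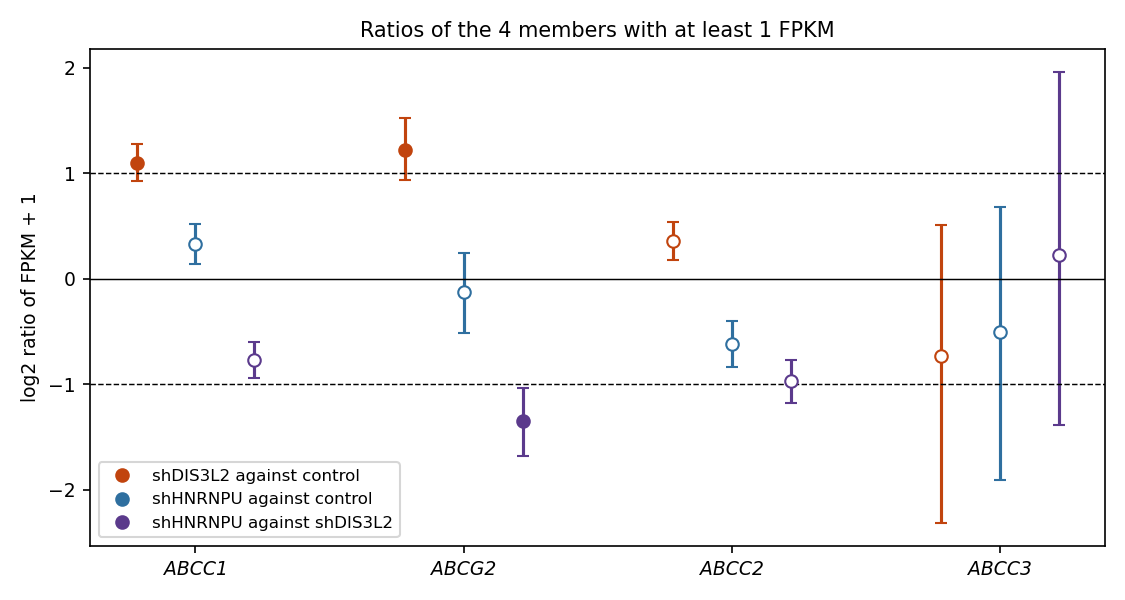
Log2 ratios of FPKM plus 1 (points) for the 4 members with a mean of at least 1 FPKM in 3 comparisons, with bars for the range that the deposited bounds allow and dashed lines at the thresholds of the size rule. Filled points passed the rule: ABCC1 and ABCG2 in shDIS3L2 against control, and ABCG2 in shHNRNPU against shDIS3L2.

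Mitochondrial genes had 11 entries in shDIS3L2 and 10 in shHNRNPU, against 0 in control, and whether this touched the scaling of every ratio against control was not tested. In such bulk libraries fewer cells of a kind and less RNA per cell cannot be told apart. Hepatocyte markers were called lower in 5 of 8 in shDIS3L2 and 2 of 8 in shHNRNPU, against 7.58% and 7.46% of all genes. FGB alone was higher in shDIS3L2, where 8.95% of all genes were. The lower ones in shDIS3L2 were APOA1 (log2 ratio -3.97), ALB (-2.78), TF (-2.22), SERPINA1 (-2.00) and TTR (-1.13). APOA1 stood at 18.9 FPKM in shDIS3L2, against 311 FPKM in control. TF, merged with TFP1 in control, stood at 276 FPKM against 1294 FPKM. In shHNRNPU, FGB (-1.30) and ALB (-1.04) were lower, while APOA1 (-0.76) and TF (-0.62) passed neither way. The summed FPKM of the 8 markers was 3219 in shDIS3L2 and 7800.2 in shHNRNPU, against 13125 in control. SERPINA1 made up most of each sum, at 2865 FPKM in shDIS3L2 and 6710 FPKM in shHNRNPU, against 11439 FPKM in control. Of the 8 cholangiocyte markers, 5 had a mean of at least 1 FPKM and 3 fell below it. In shDIS3L2, AQP1 (log2 ratio 0.94), EPCAM (0.35) and SLC4A2 (-0.42) passed neither way. The other 2 of the 5 were higher, against 8.95% of all genes. They were KRT7 at 32.2 FPKM against 7.04 FPKM in control and SOX9 at 10.04 FPKM against 4.08 FPKM. In shHNRNPU, 1 of 5 was higher, against 8.32% of all genes. This was AQP1, whose locus was merged with 3 other names. The 5 summed to 238 FPKM in shDIS3L2 and 202 FPKM in shHNRNPU, against 222 FPKM in control. Of the blood markers, LYZ reached a mean of 1 FPKM and was lower in each knockdown, at 33.5 FPKM in shDIS3L2 and 70.8 FPKM in shHNRNPU, against 181 FPKM in control. Another locus of at least 1 FPKM overlapped those of KRT7 and LYZ in at least 1 library. CD68 was counted only through a locus merged with EIF4A1 and other genes, so its own level cannot be read. The part of these markers in the transporter values was not tested.

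The receptors and factors that govern bile acid transport included 10 of 16 genes with a mean of at least 1 FPKM. In shDIS3L2, 2 were higher and 2 lower, against 8.95% and 7.58% of all genes, and the median log2 ratio was -0.25. In shHNRNPU, 3 were lower and 0 higher, against 7.46% and 8.32% of all genes, and the median was 0.10. NR1H4, the farnesoid X receptor that senses bile acids, and NR1I2, the pregnane X receptor, were listed at 0 in every library. NR0B2, the corepressor SHP that farnesoid X receptor induces, stood at 27.1 FPKM (24.4 to 29.8) in shDIS3L2 and 4.03 FPKM (3.10 to 4.96) in shHNRNPU, against 11.9 FPKM (10.4 to 13.4) in control. It was called higher in shDIS3L2 (log2 ratio 1.12) and lower in shHNRNPU (-1.36), with no overlap of intervals, and its locus lies within that of NUDC, which overlaps it. NFE2L2, which encodes NRF2, a known activator of several ABCC genes, stood at 48.0 FPKM in shDIS3L2 and 29.3 FPKM in shHNRNPU, against 21.3 FPKM in control, and was called higher in shDIS3L2 alone of the 2 comparisons with control (log2 ratios 1.14 and 0.45). CEBPA, a hepatic transcription factor, and FGFR4, the receptor for the bile acid hormone FGF19, were lower in both knockdowns, with log2 ratios of -1.43 and -1.18 in shDIS3L2 and -1.80 and -1.22 in shHNRNPU. The assembled bounds of FGFR4 differed between libraries. In control the locus of CEBPA was merged with AC008738.1 and that of NFE2L2 with AC074286.1. Another locus of at least 1 FPKM overlapped that of NFE2L2 in at least 1 library.

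Bile acid synthesis and conjugation was measured less cleanly, because loci were joined to their neighbours in some libraries only. Of 17 genes, 8 had a mean of at least 1 FPKM, of which 4 were lower in shDIS3L2 and 3 in shHNRNPU, with 0 higher in either. Over all genes, 7.58% and 7.46% were lower, and 8.95% and 8.32% higher. Where loci had like bounds in every library, 2 of 6 were lower in shDIS3L2 and 1 of 6 in shHNRNPU. CYP7A1, the rate-limiting enzyme of the classical pathway, was listed at 0 in every library. SLC27A5, which activates bile acids with coenzyme A, stood at 13.2 FPKM (10.6 to 15.9) in shDIS3L2 and 19.9 FPKM (16.9 to 23.0) in shHNRNPU, against 42.0 FPKM (37.6 to 46.5) in control. It was called lower in both (log2 ratios -1.60 and -1.04), and its locus overlapped those of ZNF324 and ZNF446. In control only, the locus also carried the name RNU6-1337P. ACOX2, an oxidase of bile acid side chains, was lower in shDIS3L2 (-1.17).

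BAAT, which joins bile acids to glycine or taurine, stood at 1.88 FPKM in shDIS3L2 and 1.80 FPKM in shHNRNPU, against 19.2 FPKM in control. In control, however, its locus was joined to that of MRPL50, a mitochondrial ribosomal protein gene that stood alone at 10.7 FPKM in both knockdowns. HSD3B7, an enzyme that modifies the sterol ring, was joined with 4 other names in control and 1 in shHNRNPU. It stood at 12.5 FPKM in shDIS3L2 and 21.2 FPKM in shHNRNPU, against 76.5 FPKM in control. The calls of BAAT and HSD3B7 therefore compare different sets of genes and are no measure of either enzyme.

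**Figure D3:**
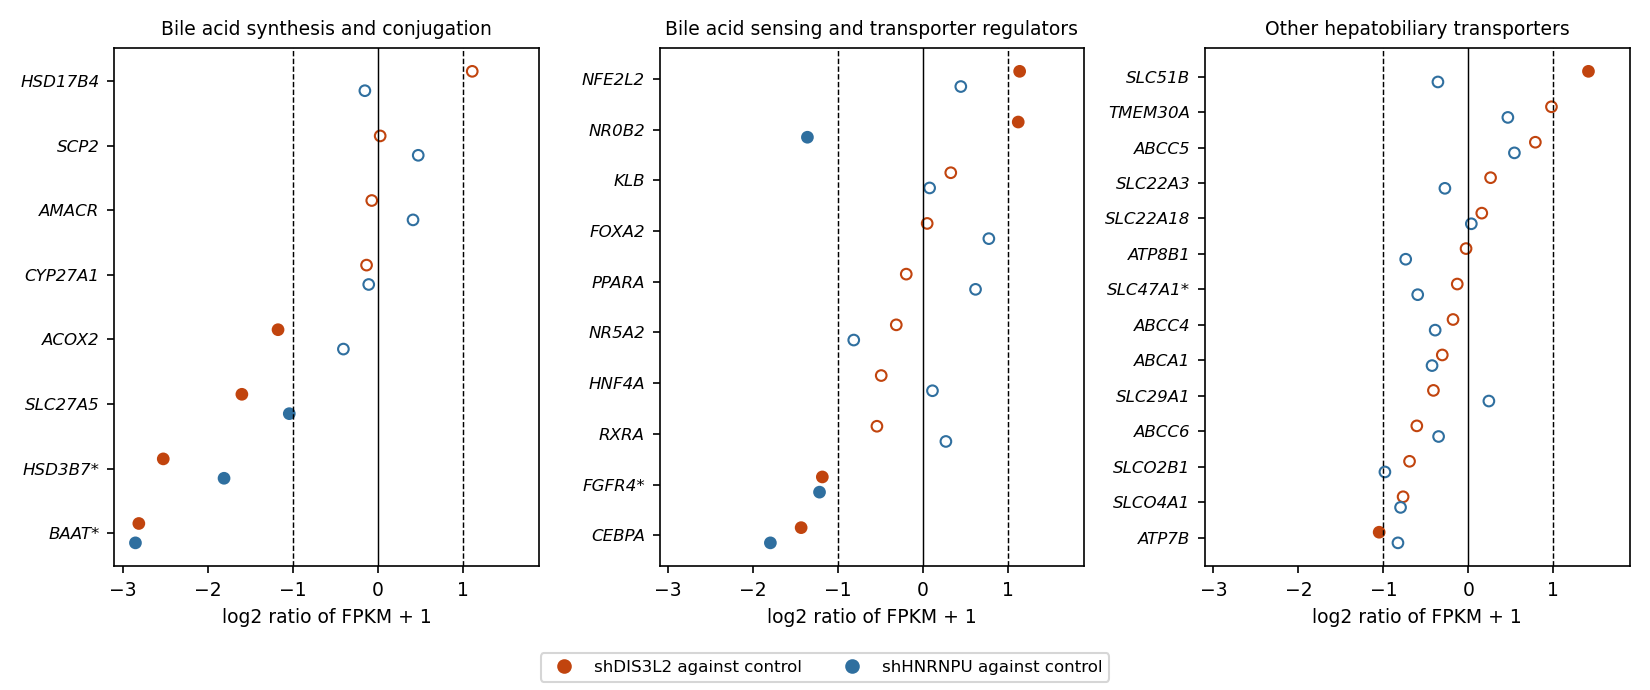
Log2 ratios of FPKM plus 1 against control for genes of bile acid synthesis, of transport regulation and of other hepatobiliary transport with a mean of at least 1 FPKM. Filled points passed the size rule, dashed lines mark its thresholds, and an asterisk marks genes whose assembled bounds differed between libraries. SLC51B and NR0B2 were higher in shDIS3L2, and NR0B2 was lower in shHNRNPU.

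Of 22 other transporters of liver and bile, 14 had a mean of at least 1 FPKM, and in shDIS3L2 1 was higher and 1 lower, the median being -0.15 and 16.5% of all genes being called. In shHNRNPU, 0 of 14 were called, against 15.8% of all genes, with a median of -0.37. SLC51B, a subunit of the basolateral carrier that exports bile acids, stood at 90.9 FPKM (84.5 to 97.2) in shDIS3L2 and 25.9 FPKM (23.0 to 28.8) in shHNRNPU, against 33.5 FPKM (30.4 to 36.6) in control. It was the higher gene in shDIS3L2 (log2 ratio 1.41), and its interval in shHNRNPU lay below that of control. Its partner subunit SLC51A was listed at 0 in every library. ATP7B, which exports copper into bile, was the lower gene, at 6.16 FPKM against 13.8 FPKM in control (-1.05).

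Among 41 other ABC transporter genes, 23 loci had a mean of at least 1 FPKM. In shDIS3L2, 1 was higher and 0 lower, against 8.95% and 7.58% of all genes, and the median was -0.10. The higher one was ABCC10, a drug pump whose locus overlaps that of DLK2, at 19.4 FPKM (16.5 to 22.3) against 8.38 FPKM (6.55 to 10.2) in control. In shHNRNPU, 2 were lower and 0 higher, against 7.46% and 8.32% of all genes, and the median was -0.18. ABCA3, a lipid pump that overlaps ABCA17P, stood at 1.85 FPKM against 6.08 FPKM in control (-1.31). ABCB6, merged with ATG9A, was listed at 0 against 40.3 FPKM in control, so no fold is given, and without genes listed at 0 the count of lower genes was 1. Of 15 other SLC10 and SLCO carriers, 5 had a mean of at least 1 FPKM. SLC10A3 was lower in shDIS3L2, but its locus was joined to that of UBL4A in control only. SLC10A4 was higher in shHNRNPU, at 7.07 FPKM against 2.79 FPKM in control, with intervals apart. The medians of those 5 were -0.69 and -0.52 in shDIS3L2 and shHNRNPU, the second being the value of SLC10A3 itself. For the 4 with like bounds, which leave out SLC10A3, the medians were -0.47 and -0.41.

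Proteins that place pumps in the canalicular membrane were measured in 14 of 16 genes. In shDIS3L2, 3 were higher and 2 lower, against 8.95% and 7.58% of all genes, and the median was 0.26. RDX, which encodes radixin, the linker between canalicular pumps and actin, stood at 43.0 FPKM (40.6 to 45.4) in shDIS3L2 and 22.9 FPKM (21.3 to 24.4) in shHNRNPU, against 12.8 FPKM (11.7 to 13.9) in control. It was called higher in shDIS3L2 (log2 ratio 1.67), as were the membrane fusion protein gene STX3 (1.15) and the tight junction gene TJP1 (1.05). The scaffold genes PDZK1 (-1.78) and SLC9A3R1 (-1.04) were lower. In control the locus of SLC9A3R1 was merged with MIR3615 and that of STX3 with OR10Y1P. Another locus of at least 1 FPKM overlapped those of RDX and STX3 in at least 1 library. In shHNRNPU, 2 were lower and 0 higher, against 7.46% and 8.32% of all genes, and the median was 0.11. These were PDZK1 at 12.6 FPKM against 30.7 FPKM in control (-1.22), and HAX1, which encodes a protein that binds canalicular ABC pumps, at 25.3 FPKM (22.8 to 27.8) against 156 FPKM (148 to 164) in control (-2.58). Of 17 enzymes known as targets of xenobiotic receptors, 5 had a mean of at least 1 FPKM. Among them 0 were called in shDIS3L2 and 1 in shHNRNPU, against 16.5% and 15.8% of all genes. That 1 was CYP1A1, at 10.2 FPKM against 22.9 FPKM in control, with assembled bounds that differed.

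**Figure D4:**
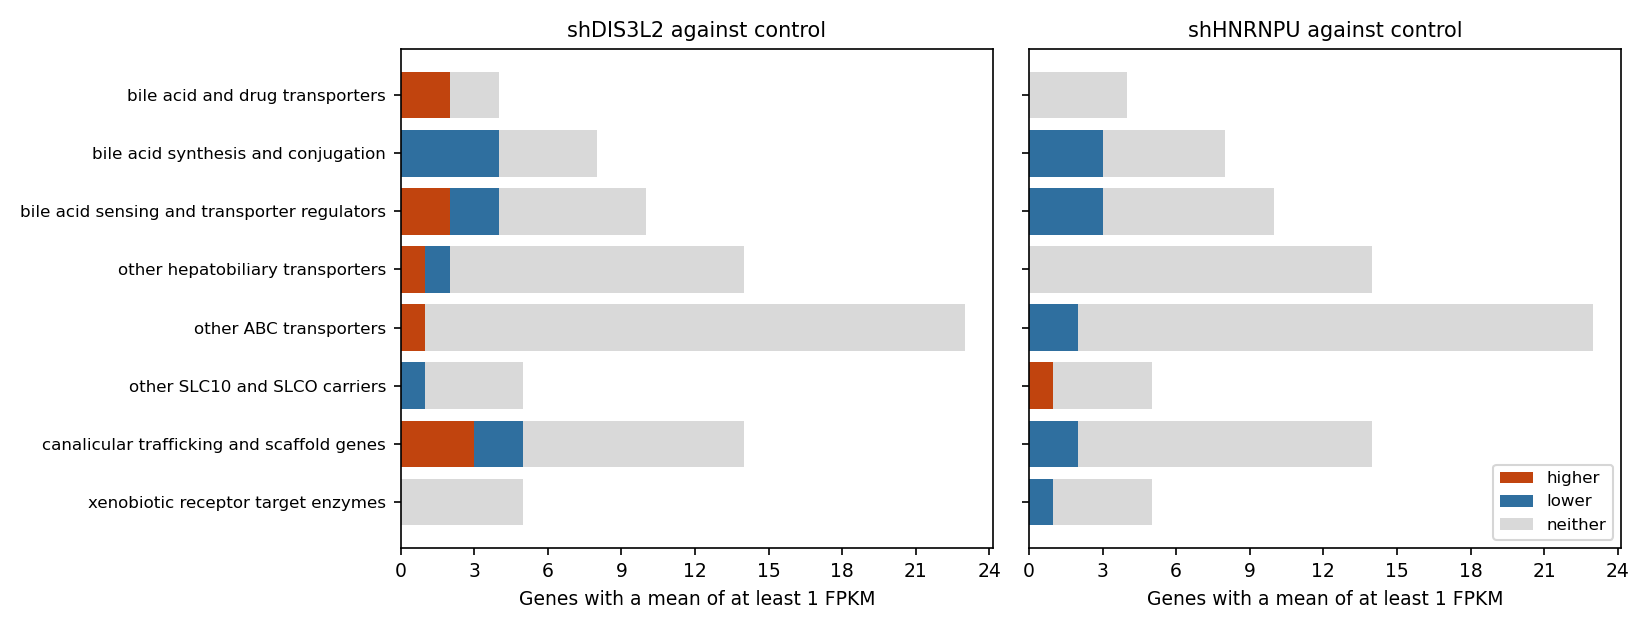
Genes of each list with a mean of at least 1 FPKM that were called higher (red-brown), lower (blue) or neither (grey) by the size rule, in shDIS3L2 and shHNRNPU against control. Of the 4 bile acid and drug transporters, 2 were higher in shDIS3L2 and 0 were called in shHNRNPU. Over all genes, 8.95% were higher in shDIS3L2 and 15.8% were called in shHNRNPU.

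The values of the 4 expressed transporters came from loci that were little shared with other genes. None of the 50-base words in the principal transcripts of ABCC1, ABCC2, ABCC3 and ABCG2 occurred in another annotated gene (0 each), against 67.4% of those of SLCO1B3 and 9.27% of those of SLCO1B1. SLCO1B3 shared its words with AC011604.2 (1881 words) and SLCO1B7 (44), and SLCO1B1 with AC022335.1 (202). SLCO1B1 and SLCO1B3 shared none of these words with each other. No named gene above 0 FPKM overlapped a locus of the 4 in any library.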

How the data were processed

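RNA of PLC cells was measured in 3 libraries, 1 per group. FPKM per gene, with a lower and an upper bound, were deposited by the authors, and per the submitters' processing notes the tools were TopHat2 2.0.12 and Cufflinks 2.2.1 with build hg19. The sources used here state neither the level of the bounds, the normalization options nor a strand setting, so overlapping genes cannot be told apart. Genes were assembled in each library separately, per the identifiers in the deposited tables. Members were found by splitting gene names at commas, and names were matched across libraries (55827 of 55868). A name with several loci took the overlapping set with the highest mean FPKM, and merged loci counted once.

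Log2 ratios were taken on FPKM plus 1, a scale on which changes of low genes look smaller. A mean FPKM of at least 1 defined the 11787 tested genes, and the size rule was applied to these. With 1 library per group no test was run. No fold is given for a gene listed at 0, or below 0.1 FPKM in both libraries. Depth was worked out from FPKM and interval widths of single-exon genes of at least 2000 bases whose fragment numbers came out whole within 0.02. The code that applies the size rule was checked on simulated tables with known changes, which gives no error rate for these libraries. Every member was named, and from each of the 12 gene lists up to 3 genes past the rule with the largest ratio in each knockdown. Genes that a sentence on a small count needed were named too. SLC51A, CYP7A1, NR1H4, NR1I2, the overlapping or merged genes and the markers listed at 0 were named after their values were seen. No genes were ranked by likeness of pattern, since 3 libraries are too few. The members and lists were chosen with earlier results of these data known. Loci had like bounds when both ends together shifted by at most 10% of the shortest locus. Python 3.11.15 and pandas 2.3.3 were used. 1 regulator gene was removed from its list and is not reported here.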

Additional observations from a re-analysis of the deposited data

Results flagged for a closer look

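An assembled locus without a gene name lay inside ABCC2 on chromosome 10 (101554447 to 101555749, hg19) in the shDIS3L2 library only, at 0.845 FPKM (0.446 to 1.24), and no such locus was listed there in shHNRNPU or control. It is outside the named genes compared above. Its strand is not in the table, and whether it shares fragments with ABCC2 was not tested.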

How the results depend on the processing

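Of 80 alternative values of single member ratios, 74 stayed within the range of the deposited bounds and 6 moved beyond it. Those 74 include sums over all loci of a name, which could not move because each member had 1 locus per library. No called member changed direction, but a new pseudocount cannot reverse a ratio, and the rescaling shifts were smaller than the called ratios. Of 66 alternative counts, 52 stayed within 1.5 times the value reported. Those 52 include member counts without merged loci, without genes listed at 0 and with like bounds. Such counts could not move, because no tested member was merged, listed at 0 or had unlike bounds. With a pseudocount of 5 the members called were 0 in shDIS3L2 against control and 0 in shHNRNPU against shDIS3L2, and over all genes the counts were 1064, 1014 and 1351 in shDIS3L2 against control, shHNRNPU against control and shHNRNPU against shDIS3L2, where 1948, 1860 and 2443 were reported. With a threshold of 1.5-fold they were 4009, 3976 and 4612, with 1 member called in shHNRNPU against control (ABCC2, lower) and 3 in shHNRNPU against shDIS3L2. After rescaling by the median of ratios 1 member was called in shDIS3L2 against control (ABCG2) and 2 in shHNRNPU against shDIS3L2, and that count was also 2 after upper-quartile rescaling and with a pseudocount of 0.1. Median-of-ratios rescaling shifts every log2 ratio by -0.11 in shDIS3L2 and -0.16 in shHNRNPU against control, before the pseudocount. It turned the split over all genes to 884 higher and 1054 lower in shDIS3L2 (1055 and 893 reported) and 750 and 1089 in shHNRNPU (981 and 879 reported). Restriction to loci with like bounds, chosen after seeing the data, left every member call in place. All 4 tested members had like bounds, so it could not have removed a call. No paired analysis was possible because each group has 1 library, and for the same reason no replicate could be left out. The 6 members below 1 FPKM and ABCC3 had intervals that overlapped, or values listed at 0, in every comparison, and the part of depth in this was not tested.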
